A study of Mus musculus with 3 samples.

Results

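The 10 genes described here are protein-coding imprinted genes with known expression in brain: Ndn, Magel2, Snrpn, Peg3, Usp29, Plagl1, Zdbf2, Impact, Nnat and Ube3a. They were taken by symbol from a fixed list, and all 10 were found among the 32531 gene symbols counted. Translating ribosome affinity purification (TRAP) pulls down messages held by ribosomes that carry EGFP-tagged L10a, a protein of the large ribosomal subunit. In the mice used here, adult Slc17a6-TRAP JX883 transgenics without treatment, the tag is under control of Slc17a6, the gene of the vesicular glutamate transporter VGLUT2. The 3 libraries are immunopurified RNA of prefrontal cortex, each from a pool of 3 mice, and form 1 group. Sex, strain background and exact age were not in the labels, and no input RNA, untagged control or other genotype was analysed here, so levels and their spread between libraries are what could be measured.

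An imprinted gene is expressed mainly or only from the allele of a given parent, a difference set by DNA methylation placed in the germ line. Peg3, Usp29, Zdbf2, Plagl1, Impact, Nnat, Ndn, Magel2 and Snrpn are known to be expressed from the paternal allele in brain, and Ube3a from the maternal allele in neurons. Loss of the paternal domain that holds Snrpn, Magel2 and Ndn is known in human Prader-Willi syndrome, and loss of maternal UBE3A in Angelman syndrome. The counts do not tell parental alleles apart, so imprinting itself was not measured.

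Of the 10 genes, 6 lie on mouse chromosome 7, in the Peg3 and Usp29 domain and in the domain from Ube3a to Magel2. Windows of 250 bases before to 50 bases after annotated start sites (RefSeq, GRCm38.p6) were found for 9 of the 10 genes. The 3 windows below are shown for their place in 3 kinds of locus: a start region shared by a pair of members, a start region shared with another gene, and a gene nested in another. Whether their sequence bears on the levels was not tested. CpG dinucleotides, the sites at which mammalian DNA is methylated, are in capitals, and each sequence reads 5′ to 3′ along the gene's strand. The Peg3 window is chr7:6730370-6730669 on the minus strand, the Snrpn window chr7:60005150-60005449 on the minus strand, and the Nnat window chr2:157559828-157560127 on the plus strand.
Peg3: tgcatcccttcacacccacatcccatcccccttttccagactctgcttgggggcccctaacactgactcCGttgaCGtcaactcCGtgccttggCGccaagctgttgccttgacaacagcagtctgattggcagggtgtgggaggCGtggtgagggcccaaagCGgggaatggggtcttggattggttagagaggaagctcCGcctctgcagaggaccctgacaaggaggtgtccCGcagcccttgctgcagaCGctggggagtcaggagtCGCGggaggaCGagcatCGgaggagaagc
Snrpn: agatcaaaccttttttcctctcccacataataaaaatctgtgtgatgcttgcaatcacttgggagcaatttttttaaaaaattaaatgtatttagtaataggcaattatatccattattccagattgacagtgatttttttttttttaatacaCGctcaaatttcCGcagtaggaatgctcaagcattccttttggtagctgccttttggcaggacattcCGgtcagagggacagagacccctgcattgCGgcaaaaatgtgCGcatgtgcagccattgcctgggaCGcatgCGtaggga
Nnat: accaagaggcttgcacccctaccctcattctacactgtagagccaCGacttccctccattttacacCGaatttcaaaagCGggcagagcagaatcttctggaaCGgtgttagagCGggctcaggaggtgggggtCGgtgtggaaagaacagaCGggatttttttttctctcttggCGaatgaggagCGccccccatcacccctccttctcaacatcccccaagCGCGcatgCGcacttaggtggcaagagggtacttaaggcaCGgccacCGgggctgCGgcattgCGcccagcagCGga

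The start sites of the Peg3 and Usp29 windows lie 164 bases apart on opposite strands, and the windows share 263 bases. That shared stretch held the letters TGACGTCA, the palindromic cyclic AMP response element, which 1.79% of all 32851 windows hold on either strand. Among the other windows of the 9 genes, the second Zdbf2 window also held TGACGTCA. The Peg3 and Usp29 windows also held CCAAT, read on either strand, 2 times each, against 37.4% of all windows with at least 1. Neither held GCCATNTT or TATAAA, found on either strand in 6.05% and 13.6% of all windows. None of these 4 motifs contains another, and the palindrome was counted once per site. CpG counts were 13 for Peg3, 17 for Usp29 and 17 for Nnat, against a median of 7 over all windows. Snrpn had 4 windows with 2 to 7 CpGs, and the one shown, with 7, was identical, base for base, to the window of Snurf, the upstream reading frame of the same message. The second Zdbf2 window, chr1:63273019-63273318, had the highest CpG count among the 9 genes, at 38.

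Named genes took 12592174 counts in replicate 1, 8964137 in replicate 2 and 12648577 in replicate 3. CPM, a count scaled to 1000000 counts of named genes, compares a gene between libraries, and TPM, which also divides by the length of the gene's merged exons, compares genes with each other. Markers of cell types and of neighbouring regions were summed by list. In every library 8 glutamatergic markers held 5070 to 5406 CPM and 7 GABAergic markers 930 to 989 CPM, all of both lists at 1 CPM or more. All 7 astrocyte markers were at 1 CPM or more and held 133 to 192 CPM, oligodendrocyte markers 326 to 461 CPM, microglial markers 24.1 to 31.5 CPM with C1qa at 0 counts, and endothelial markers 3.49 to 4.90 CPM. Among neighbouring regions, striatal markers held 283, 373 and 439 CPM in replicates 1, 2 and 3, olfactory bulb markers 170, 145 and 64.1 CPM, and hypothalamic markers 22.1, 38.4 and 35.7 CPM. Thalamic markers held 345, 336 and 355 CPM with Gbx2 at 0 counts, septal and diagonal band markers 139, 122 and 156 CPM, and markers of ependyma and choroid plexus 4.21 to 9.71 CPM. Most of the thalamic sum was Rora, at 179, 150 and 146 CPM, and Zfhx3, at 132, 139 and 161 CPM. Other thalamic markers were less even, with Tcf7l2 at 7.86, 32.4 and 20.6 CPM and Lhx9 at 19.1, 8.14 and 17.2 CPM. Most of the septal and diagonal band sum was Zic1, at 103, 95.9 and 115 CPM. In bulk RNA of this kind, fewer cells of a type and less RNA per cell cannot be told apart.

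Nearly all of the 10 imprinted genes were detected in the ribosome-bound RNA above 1 CPM. Peg3 and Impact took the most reads, while per length of merged exons, in TPM, Impact, Nnat and Ndn were highest and Peg3 came after them. The places of Ndn and Peg3 depended on the length used. Together the 10 genes held 0.212%, 0.215% and 0.225% of counts in replicates 1, 2 and 3, and Peg3 and Impact held 64.3% of that. At 1 CPM or more in every library were 9 of the 10, against 67.0% of all genes with a count, and Snrpn was the exception in replicate 3. The median of the 10 genes was 51.9 TPM, against 12.9 TPM over the 16543 genes with a count and a length. The genes had been listed for known brain expression, so nothing is read from that difference. By TPM they ran from Impact at rank 182 to Ube3a at rank 10950 of those genes, and 6 of the 10 lay above the median of all.

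**Figure D1:**
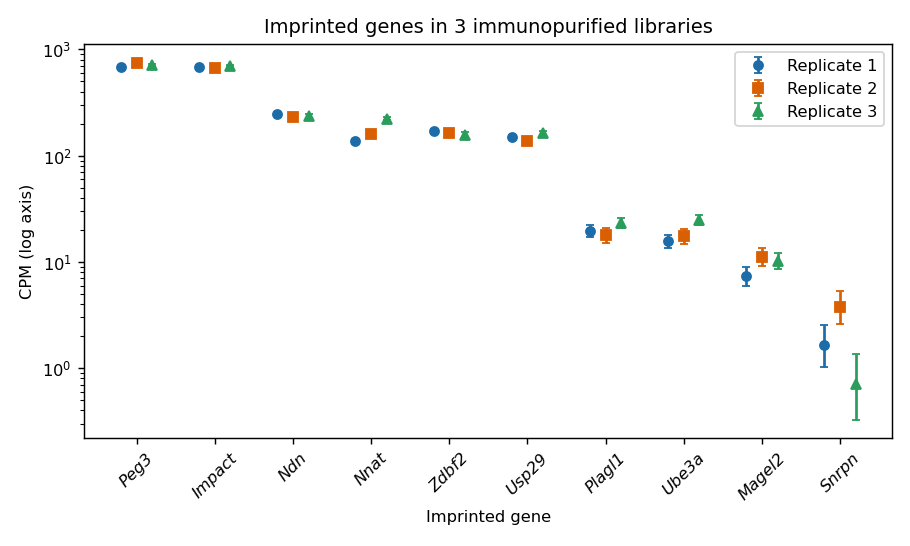
CPM (log axis) of the 10 imprinted genes in replicates 1 to 3, in order of mean CPM; bars are exact 95% Poisson intervals, which cover counting error only. Peg3 and Impact lie near 700 CPM in every library, and Snrpn lies lowest with the widest intervals.

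Among the zinc finger genes, Peg3, which encodes a Krüppel-type zinc finger protein, had 684, 745 and 714 CPM in replicates 1, 2 and 3. The highest value was 1.09 times the lowest, and the mean was 714 ± 30.7 CPM (SD, n = 3). Zdbf2, whose product carries a DBF-type zinc finger, had 169, 163 and 158 CPM and a mean of 163 ± 5.63 CPM. Plagl1, a zinc finger transcription factor also called Zac1, had 19.5, 17.7 and 23.3 CPM and a mean of 20.2 ± 2.86 CPM. Peg3 and Zdbf2 thus varied little. In replicate 1 the exact 95% Poisson interval of Peg3 was 669 to 698 CPM. It did not meet the 727 to 763 CPM of replicate 2 or the 700 to 729 CPM of replicate 3. The intervals of Zdbf2 all met. Plagl1 was highest in replicate 3, where its interval of 20.7 to 26.1 CPM overlapped that of replicate 1, 17.1 to 22.1 CPM. The interval of replicate 2, from 15.1 CPM, ended just below that of replicate 3 and did not meet it. Per length Peg3 stood at 263 ± 12 TPM, Zdbf2 at 63.2 ± 2.03 TPM and Plagl1 at 12.6 ± 1.79 TPM. In RefSeq, 12.4% of the Plagl1 span is overlapped by the noncoding gene Hymai and 20.1% of the Zdbf2 span by Gpr1. Of exonic bases, 0.486% of Plagl1 and 0.782% of Zdbf2 are shared with other genes in GENCODE.

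Of the genes of the ubiquitin system, Usp29, a ubiquitin-specific protease gene, had 149, 137 and 164 CPM, with a mean of 150 ± 13.6 CPM. It was highest in replicate 3 and lowest in replicate 2. The interval of replicate 3, 157 to 171 CPM, did not meet those of replicate 1, 143 to 156 CPM, or replicate 2, 129 to 145 CPM. In GENCODE 14.8% of the exonic bases of Usp29 are shared with other genes. Ube3a (ENSMUSG00000025326.12, mm10 chromosome 7, 59228750 to 59311536), a HECT-type ubiquitin ligase gene, had 15.6, 17.5 and 24.9 CPM, with a mean of 19.4 ± 4.90 CPM. Replicate 3 stood above the others, and its interval of 22.2 to 27.8 CPM did not meet those of replicate 1, 13.5 to 17.99 CPM, or replicate 2, 14.9 to 20.5 CPM. Ube3a is convergent with Snhg14, a long noncoding RNA whose end runs antisense to Ube3a in neurons. In RefSeq Snhg14 overlaps 46.4% of the Ube3a span, and 27.3% of the exonic bases of Ube3a are shared with other genes in GENCODE. Snhg14 itself had 175, 91 and 167 counts, or 12.4 ± 1.99 CPM. Reads that could not be given to a single gene were counted for none, and whether strand was used is not stated, so the level of Ube3a is uncertain. The share of its reads left out was not tested.

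Ndn and Magel2 are intronless neighbours that encode proteins of the MAGE family. Ndn, known as a growth suppressor of neurons, had 248, 230 and 236 CPM in replicates 1, 2 and 3, with a mean of 238 ± 9.64 CPM. Magel2, whose product binds the ubiquitin ligase TRIM27 and the endosomal WASH complex, had 7.39, 11.2 and 10.3 CPM, with a mean of 9.61 ± 1.97 CPM. Ndn differed little across the libraries, its highest value 1.08 times its lowest. Its interval of 239.86 to 257.35 CPM in replicate 1 did not meet the 219.77 to 239.72 CPM of replicate 2. Magel2 was lowest in replicate 1. That replicate's 93 counts gave an interval of 5.96 to 9.05 CPM, which did not meet the 9.08 to 13.6 CPM of replicate 2. No exonic base of either gene was shared with another gene in GENCODE, while in RefSeq the long noncoding gene Gm32061 spans both.

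Impact (ENSMUSG00000024423.6, chromosome 18, 12955852 to 12992950) encodes an inhibitor of the kinase GCN2, which slows translation when amino acids are scarce. It had 685, 664 and 695 CPM, with a mean of 681 ± 16 CPM. Its CV of 2.35% was the smallest of the 10 genes, against a counting error of 1.15%. Snrpn (ENSMUSG00000102252.5, chromosome 7, 59982495 to 60140219) encodes SmN, an Sm protein of spliceosomal particles made mainly in neurons. It had 21, 34 and 9 counts, equal to 1.67, 3.79 and 0.712 CPM. The mean was 2.06 ± 1.58 CPM, and 1.19 CPM without replicate 2. The replicate 3 interval of 0.325 to 1.35 CPM did not meet that of replicate 2, 2.63 to 5.30 CPM. In RefSeq the whole of Snurf, from 59982495 to 60005199, lies inside Snrpn, and Snhg14 overlaps 100% of the Snrpn span. Snurf had 5, 3 and 4 counts, so the sums of both genes were 26, 37 and 13 counts. Reads that fitted more than 1 gene were counted for none and made up 2.68% to 2.84% of all reads in the files, and 34.1% of the exonic bases of Snrpn are shared with other genes. The Snrpn value therefore cannot be read as the level of its message, and the share of its reads left out was not tested.

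Nnat (ENSMUSG00000067786.16, chromosome 2, 157560078 to 157562522) encodes neuronatin, a small membrane protein of the endoplasmic reticulum related to the calcium pump regulator phospholamban. It had 136, 159 and 223 CPM in replicates 1, 2 and 3, with a mean of 173 ± 44.7 CPM. Replicate 3 stood 1.63-fold above replicate 1, and the counting intervals of the 3 libraries, 130 to 143, 151 to 167 and 214 to 231 CPM, did not meet. Its host gene Blcap, which spans Nnat on the opposite strand, had 124, 109 and 121 CPM, and 4.76% of the exonic bases of Nnat are shared with other genes in GENCODE.

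**Figure D2:**
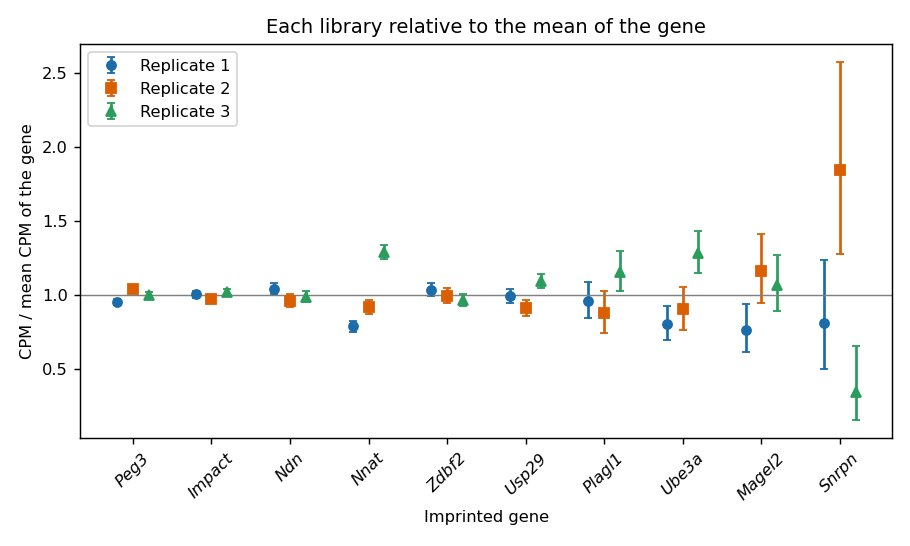
CPM of each library divided by the mean CPM of the gene over 3 libraries, for the 10 imprinted genes; bars are exact 95% Poisson intervals on the same scale. Nnat and Ube3a lie at 1.29 in replicate 3, and Snrpn reaches from 0.346 in replicate 3 to 1.84 in replicate 2.

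Variation between libraries was tested in edgeR by how well 1 mean per gene fitted its counts, given the dispersion of genes of like abundance. Of 14774 genes tested 36 were called at an adjusted p of 0.05, or 0.244%, and none of the 10 imprinted genes was among them, either in edgeR or among the 12 genes (0.0812%) that the limma variance test called. At an unadjusted p of 0.05, 1 of the 10 imprinted genes passed in edgeR, against 7.22% of all genes, and 1 in limma, against 4.85%. That gene was Nnat in both, with an unadjusted p of 0.00865 and an adjusted p of 0.42 in edgeR, higher in replicate 3 than in the other libraries. Without replicate 3 the adjusted p of Nnat in edgeR was 0.99999, as was that of the other 9 genes with all libraries. A p above the threshold with 3 libraries does not show that these genes are equal between libraries.

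The coefficient of variation (CV, SD over mean) lay under the edgeR dispersion trend, which leaves out counting error, for 7 of the 10, against 64.3% of all genes tested, so the share is near the background. The CV lay under the median of genes in the same bin of abundance for 6 of the 10. A median splits each bin evenly, so this share too is near the background. It was 2.35% for Impact, 3.45% for Zdbf2, 4.05% for Ndn, 4.29% for Peg3 and 9.05% for Usp29, each under the 10.6% to 11.9% of the trend at their abundance, though Usp29 was over the median of its bin, 8.27%. Plagl1 at 14.2% and Magel2 at 20.5% were also under their trend of 21.2% and 29.0%. Nnat at 25.9% was over its trend of 11.6%, Ube3a at 25.3% over 21.4%, and Snrpn at 76.7% over 63.6%. Counting alone would give 2.27% for Nnat, 6.78% for Ube3a and 22% for Snrpn. As for Nnat, the sums of 7 of the 12 marker lists were lowest in replicate 1 and highest in replicate 3: the glutamatergic, GABAergic, astrocyte, oligodendrocyte, microglial, endothelial and striatal lists. Among single markers that order held for 4 of 7 striatal, 3 of 7 astrocyte, 2 of 6 microglial and 2 of 5 endothelial ones. It held for only 1 of 8 glutamatergic, 1 of 7 GABAergic and 1 of 6 oligodendrocyte markers. Penk made up 142, 223 and 238 CPM of the striatal sum. Camk2a made up 2609, 2904 and 3138 CPM of the glutamatergic sum, and Sst 126, 182 and 227 CPM of the GABAergic sum. The ribosomal RNA gene Rn45s took 6.43%, 6.98% and 8.19% of counts in replicates 1, 2 and 3. The part of these in the Nnat values was not tested. The 10 genes did not share a direction: 2 were highest in replicate 1, 3 in replicate 2 and 5 in replicate 3.

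**Figure D3:**
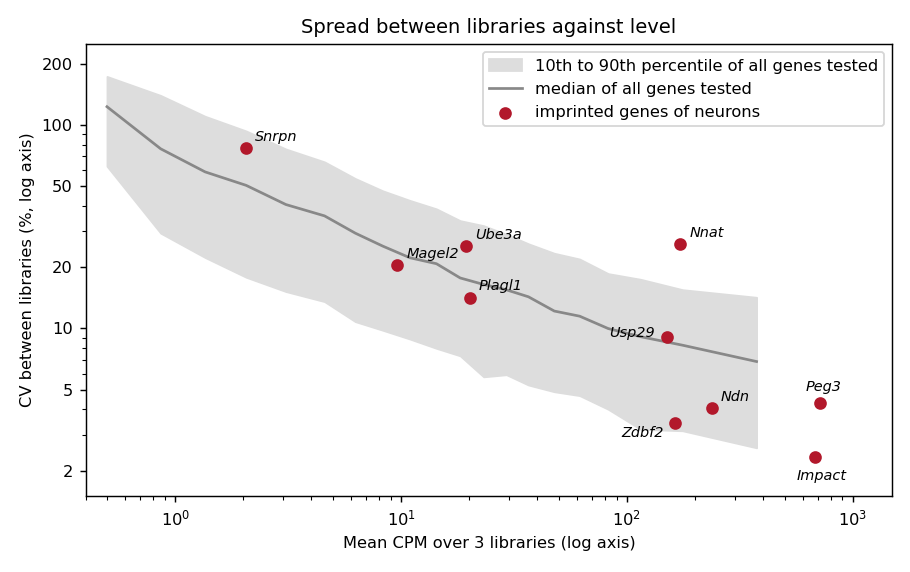
CV between the 3 libraries (%, log axis) against mean CPM (log axis) for the 10 imprinted genes, with the 10th to 90th percentile and median of all genes tested in 20 bins of equal size. Nnat, at 25.9%, lies above the band, Snrpn and Ube3a lie in its upper part, and Peg3 and Impact lie at higher CPM than the last bin's median.

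Set in order by TPM, the 10 genes ran Impact at 650 ± 14.6, Nnat at 462 ± 120, Ndn at 315 ± 11.8, Peg3 at 263 ± 12, Zdbf2 at 63.2 ± 2.03, Usp29 at 40.7 ± 3.67, Plagl1 at 12.6 ± 1.79, Magel2 at 10.2 ± 2.11, Snrpn at 4.67 ± 3.59 and Ube3a at 4.6 ± 1.17 TPM (SD, n = 3). From Impact down to Plagl1, no gene's values overlapped those of its neighbour in this order. Plagl1 and Magel2 overlapped, with Plagl1 higher in 2 of 3 libraries, as did Magel2 with Snrpn and Snrpn with Ube3a. The length used decided some of the order. RefSeq gives Ndn a span of 1652 bases, against the 3694 merged exon bases of GENCODE used here. A shorter length gives a higher TPM, and the level of Ndn by its RefSeq span was not computed. With the longest transcript in place of merged exons, Peg3 at 304 TPM stood above Ndn at 238 TPM, Usp29 at 73.6 TPM above Zdbf2 at 47.8 TPM, and Ube3a at 7.26 TPM above Snrpn at 3.67 TPM. The large step between Peg3 and Zdbf2, 2.05 ± 0.10 log2 units by merged exons, was present with both lengths.

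A gene was then compared with its neighbour, relative or partner in the same library, as a difference in log2(TPM + 0.5). Peg3 exceeded Usp29, with which it shares a start region, by 2.68 ± 0.17 log2 units, or 6.40-fold. Ndn exceeded Magel2, which lies 27051 bases away, by 4.91 ± 0.36 units, or 30.0-fold, with the GENCODE length of Ndn. Nnat exceeded Blcap by 1.25 ± 0.37 units, with 0.87, 1.28 and 1.61 in replicates 1, 2 and 3. Impact exceeded Eif2ak4, the gene of its target kinase GCN2, by 6.46 ± 0.13 units, or 88.2-fold. Snrpn lay below Snrpb, its widely expressed relative, by 9.00-fold (-3.17 ± 1.07 units), a difference that carries the doubt over reads shared with Snurf. It was -3.76 units without replicate 2, -2.72 without replicate 3 and -2.63 over unshared exonic bases. All 3 libraries had the direction given for each of these 5 pairs. The exact permutation test (sign flips, two-sided) gave p = 0.25 for each, the smallest that 3 libraries allow, and an adjusted p of 0.3 over 6 pairs. Snrpn minus Ube3a was 0.02, 0.97 and -1.60 in replicates 1, 2 and 3, a mean of -0.20 ± 1.30 (exact permutation p = 1), which became 0.49 without replicate 3, -1.11 with the longest transcript and -3.12 as log2(CPM + 0.5) with no correction for length. With the longest transcript Peg3 exceeded Usp29 by 2.04 units. The Nnat and Blcap difference was 0.52 units without any correction for length.

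**Figure D4:**
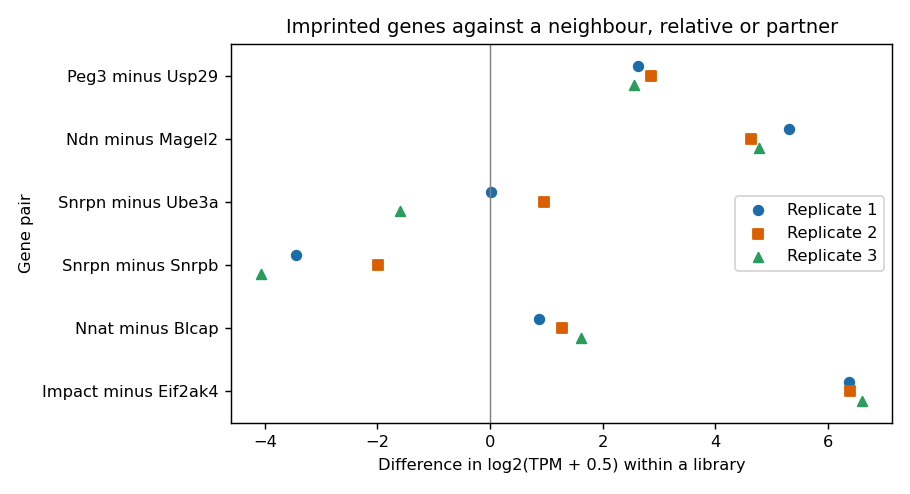
Difference in log2(TPM + 0.5) within each library (replicates 1 to 3) for 6 pairs, the gene named first minus the gene named after it. Pairs with Peg3, Ndn, Nnat or Impact first lie right of 0 in every library, and Snrpn minus Ube3a lies on either side of it.

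Partners of the 10 genes were described from lists chosen by function. Of all genes with a count, 67.0% were at 1 CPM or more in every library. The lists are short, so nothing is read from how many of their genes passed. Of 10 genes related to or acting with the MAGE proteins, all were at 1 CPM or more in every library, led by the MAGE gene Maged1 at 693 ± 30.5 TPM and Magee1 at 187 ± 30.4 TPM, with Ndnl2, a MAGE subunit of the SMC5/6 complex, lowest at 9.70 ± 5.35 TPM. Trim27, the ligase that MAGEL2 enhances, stood at 23.7 ± 3.36 TPM. Of 8 genes listed for UBE3A, all passed 1 CPM, led by Arc, an activity-regulated synaptic gene reported as a substrate, at 252 ± 48.9 TPM and the conjugating enzyme gene Ube2l3 at 156 ± 5.21 TPM, with the exchange factor gene Arhgef15 lowest at 20.1 ± 6.33 TPM. Of the Sm proteins and Smn1, 7 of 8 did, led by Snrpd1 at 127 ± 2.48 TPM and Snrpg at 55.8 ± 3.22 TPM. Snrpf was lowest at 0.450 ± 0.450 TPM, and 85.4% of its exonic bases are shared with another gene.

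In the arm of the stress response that IMPACT restrains, 8 of 9 genes passed 1 CPM, led by the transcription factor gene Atf4 at 268 ± 22.4 TPM and the asparagine synthetase gene Asns at 175 ± 23.0 TPM. Gcn1l1, whose product IMPACT binds, stood at 6.07 ± 0.987 TPM and Trib3 was lowest at 0.476 ± 0.0974 TPM. Among genes reported to act with PEG3 or USP29, 5 of 6 passed, with the ubiquitin ligase gene Siah1a at 91.4 ± 16.9 TPM, Trp53 at 44.3 ± 14.2 TPM and the checkpoint gene Clspn lowest at 0.761 ± 0.991 TPM. Of 6 genes listed for neuronatin, 2 passed, Blcap and the calcium pump gene Atp2a2, whose product is SERCA2. Atp2a2 stood at 749 ± 56.6 TPM, while the pump gene Atp2a3 had 0 counts and Atp2a1 had 1 count in replicate 2. The phospholamban gene Pln had 2, 3 and 0 counts. Of 9 factors that keep imprints in place, 6 passed, led by Ctcf at 111 ± 8.89 TPM and Trim28 at 94.8 ± 9.83 TPM, while Uhrf1 and Dppa3 had 0 counts.

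Other imprinted genes were set beside the 10. Of 48 listed as protein-coding, 35 (72.9%) were at 1 CPM or more in every library, again against 67.0% of all genes with a count, and the median of the 48 was 11.2 TPM. RefSeq gives Zim3, which is among the 48, as a long noncoding RNA. Of 20 listed as paternally expressed in at least 1 tissue, 14 passed, led by the nucleosome assembly protein gene Nap1l5 at 2511 ± 318 TPM and Rasgrf1, a Ras exchange factor gene, at 439 ± 18 TPM, with Ins2 and Peg12 at 0 counts. Of 28 that are maternally expressed in at least 1 tissue, 21 passed, led by Gnas, the stimulatory G protein subunit gene, at 1405 ± 55.5 TPM and the tetraspanin gene Cd81 at 375 ± 32.5 TPM, with Phlda2 and Tfpi2 at 0 counts. Nap1l5 and Gnas were the 2 of the 48 that stood above Impact. Of 14 imprinted noncoding transcripts 8 passed, led by Peg13 at 415 ± 15.3 TPM and B230209E15Rik at 328 ± 11.4 TPM, while Peg3os, H19 and Snord116 had 0 counts. A count of 0 allows up to 0.238, 0.335 and 0.237 CPM in replicates 1, 2 and 3, from 3 counts. Of the 94 genes of the partner lists and of these imprinted lists that were tested, 0 were called as varying by edgeR or limma. An unadjusted p under 0.05 was found for 9 of the 94 in edgeR, against 7.22% of all genes, and for 13 in limma, against 4.85%. Both shares of the 94 lay above those of all genes, more so in limma, and the reason was not tested.

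**Figure D5:**
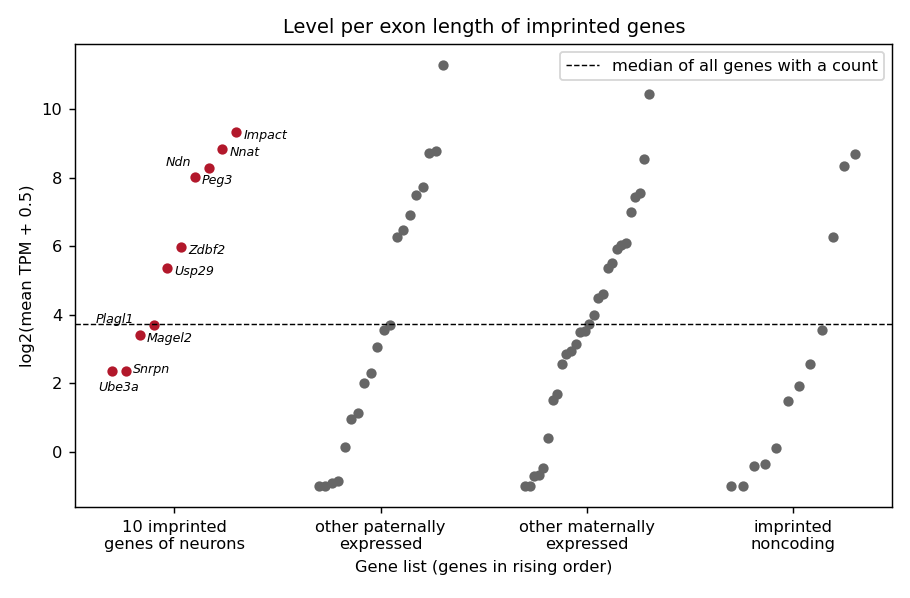
Mean level per exon length, log2(mean TPM + 0.5), of the 10 imprinted genes (left, named) and of other imprinted protein-coding and noncoding genes, each list in rising order; the dashed line is the median of all genes with a count. Impact, at 650 TPM, is the highest of the 10, and each of the 3 other lists runs from genes at or near 0 to genes above 300 TPM.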

How the data were processed

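Each library's deposited file gives raw read counts by gene symbol and the HTSeq summary lines. The submitters' processing notes name STAR 2.0.0e, HTSeq and the mm10 build; annotation and strand use: not given in the sources used here. Lines naming no gene held 27.2% to 28.3% of reads, among them reads shared by genes and reads placed at several positions, and were left out of totals and tests. Symbols were matched to GENCODE M21 (mm10), 727 of them through RefSeq synonyms, which gave a length to 90.0% of genes with a count. TPM was computed from the deposited counts with merged exon lengths. Varying genes were tested with edgeR 4.0.16 (TMM, trended dispersion, deviance against chi-square, Benjamini-Hochberg adjustment) for genes with at least 10 counts in a library. Alternatives used limma 3.58.1 and DESeq2 1.42.0 size factors under R 4.3.3, and both tests were run on simulated data first. The members, lists and tests were chosen with earlier results of these data known. All 10 members are named, and of other lists the 2 highest and the lowest by TPM. Trim27, Gcn1l1, Atp2a1, Pln, Snurf, Snhg14 and Penk were added for their roles after values were seen. Marker genes that make up a list's sum or depart from it were also named after values were seen. Replicates are separate pools by label; p-values measure the spread between these 3 samples. Intervals and floors cover counting error only, because PCR reads that carry no molecular identifiers may be copies of 1 molecule.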

Additional observations from a re-analysis of the deposited data

How the results depend on the processing

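None of the 10 imprinted genes was called as varying under any of 89 combinations of gene and alternative; the lowest adjusted p was 0.0992, for Snrpn with a common dispersion in edgeR, and that of Nnat ran from 0.373 to 0.99999 in edgeR and limma. Snrpn could not be tested at a minimum of 50 counts. The count of all varying genes, 36 of 14774 in edgeR, was 12 with limma, 1097 with a common dispersion, 18 at an adjusted p of 0.01, and 16 to 21 when a replicate was left out; the cause of these moves was not tested, beyond the stricter threshold and the fewer samples. Of 48 pair alternatives, 1 reversed: Snrpn minus Ube3a was 0.49 without replicate 3, and -0.79 to 0.49 over the replicates left out, against -0.20 with all; it was -1.11 with the longest transcript and -3.12 with no correction for length (exact permutation p = 0.25). The median of the 10 genes was 60.7 TPM with the longest transcript, against 51.9 TPM with merged exons, and only the length used differed. Mean CPM stayed within 1 SD in 56 of 60 alternatives, and Ndn, Peg3, Zdbf2 and Impact moved by more only when Rn45s was left out of the total. The SD of Snrpn is wide, and its mean of 2.06 CPM was 1.19 CPM without replicate 2. At 5 CPM 9 of the 10 passed, and at 1 TPM 10 did. No paired analysis was possible because the libraries form 1 group, so no groups share replicate numbers; gene pairs were set against each other within a library. Depth limits Snrpn and Magel2 most, at 64 and 323 counts over the 3 libraries.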
